A study of Mus musculus with 13 samples.

Results

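The genes examined were Cd28, Icos and Ctla4, the CD28 family members with neighboring genes on one chromosome. They were chosen by symbol and made up 3 of the 12963 genes listed in a table of RNA sequencing values from T cells of B16-F10 tumors. B16-F10 is a transplantable mouse melanoma line, here grown under the skin. All mice carried the Foxp3-EGFP-DTR allele, which places a green fluorescent protein (EGFP) and the human receptor for diphtheria toxin (DTx) under control of Foxp3. Foxp3 is the transcription factor that defines regulatory T (Treg) cells, so DTx kills these cells and PBS serves as the control. There were 5 groups of libraries, 13 in all. Treg PBS (n = 3) held Treg cells of PBS-treated mice. CD4 PBS (n = 2) and CD8 PBS (n = 2) held CD4+ and CD8+ conventional T (Tconv) cells of PBS-treated mice, while CD4 DTx (n = 3) and CD8 DTx (n = 3) held the same cell types from DTx-treated mice. CD4+ Tconv cells were separated from Treg cells as EGFP-negative cells, so the toxin receptor and the sorting both rested on Foxp3 expression. The ages of the mice are not given in the labels.

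The CD28 family sets how strongly a T cell answers its antigen. CD28 and ICOS are costimulatory receptors that signal alongside the T cell receptor, mainly through phosphatidylinositol 3-kinase (PI3K). CD28 binds CD80 and CD86 on antigen-presenting cells, ICOS binds ICOS ligand, and CTLA-4 binds the same CD80 and CD86 more tightly than CD28 does and removes them from the presenting cell. CD28 is present on resting T cells, ICOS appears after activation, and CTLA-4 is held at high levels by Treg cells, for which Ctla4 is a target of Foxp3. In the RefSeq annotation of GRCm38.p6 the order was Cd28, Ctla4, Icos, with 0 other protein-coding genes between them.

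The Ctla4 promoter is shown because Ctla4 was the member whose transcript differed the most between groups. RefSeq promoter sequences held 1 of the 3 members. The 250 bases before the annotated Ctla4 start lie at chr1:60908775-60909024 on the + strand of GRCm38.p6. They read as follows, with capitals marking matches on either strand to a core of NFAT sites (GGAAAA) and to a core of forkhead sites (TGTTT), the DNA-binding families of NFAT and of Foxp3.
Ctla4: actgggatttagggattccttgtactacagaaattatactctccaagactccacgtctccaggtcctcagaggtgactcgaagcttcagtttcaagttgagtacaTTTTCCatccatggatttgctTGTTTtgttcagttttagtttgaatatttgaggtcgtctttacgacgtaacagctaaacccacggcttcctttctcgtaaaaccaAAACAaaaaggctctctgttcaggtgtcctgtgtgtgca
The NFAT core matched 1 time, at -145 from the start, and 20.4% of 32851 promoters of the same set held it. The forkhead core matched 2 times, at -124 and -39, and 46.4% of promoters held it. None of these matches share bases, and they are matches of letters, with no measurement of binding.

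Values are normalized reads, which are read counts divided by 1 size factor per library. Libraries held between 15947556 and 34140486 recovered reads, and a single read was worth between 0.661 and 1.37 normalized reads. The 3 members had between 521 and 45624 recovered reads per library, so counting error was small beside the spread between libraries. The T cell marker Cd3e ranged from 20019 to 36295 normalized reads. Cd4 was at 10595 to 32503 in the CD4+ groups and at 0 to 413 in the CD8 groups, while Cd8a was at 23475 to 48330 in the CD8 groups and at 26.4 to 1302 in the others. Foxp3 ranged from 1178 to 1896 in the Treg libraries and from 0 to 12.1 elsewhere. Differences are log2 fold changes from limma with Benjamini-Hochberg adjustment over 12667 genes, and a gene was called changed at an adjusted p under 0.05. In such bulk samples a larger share of cells with a transcript and more of it per cell cannot be told apart.

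Icos and Ctla4 had the same order of group means, and Cd28 had another. Cd28 spanned a 4.28-fold range between its lowest and highest group mean, Icos a 17.8-fold range and Ctla4 a 43.9-fold range. CD8 PBS was the lowest group for all 3, but Cd28 peaked in CD4 DTx, whereas Icos and Ctla4 peaked in Treg PBS.

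Cd28, the costimulatory receptor of resting T cells, was at 4744 and 3907 normalized reads in CD8 PBS replicates 2 and 3. In CD4 PBS it was at 10822 and 11308. In CD8 DTx replicates 1, 2 and 3 it was at 14597, 12532 and 9484. The CD8 PBS libraries therefore lay below all others. CD4 DTx held 25226, 15843 and 14513 normalized reads of Cd28. Treg PBS held 10202, 13382 and 13426. The CD4 DTx libraries were all above the Treg PBS and CD4 PBS libraries, and CD8 DTx overlapped CD4 PBS, CD4 DTx and Treg PBS. Ordered by mean, Cd28 stood at 18527 ± 5839 in CD4 DTx (SD, n = 3), 12337 ± 1849 in Treg PBS (n = 3), 12204 ± 2572 in CD8 DTx (n = 3), 11065 ± 344 in CD4 PBS (n = 2) and 4326 ± 592 in CD8 PBS (n = 2). Of the neighbors in this order, only the last pair passed the test (limma, adjusted p = 0.0483), and that call was lost with edgeR (adjusted p = 0.0807) and on leaving out any 1 of its libraries (limma, adjusted p = 0.169 to 0.277).

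Icos, the receptor induced by activation, was at 2410 and 1540 normalized reads in the CD8 PBS libraries. In CD4 PBS it was at 4474 and 2977. After DTx it was at 17348, 9654 and 7147 in CD8 cells. Every CD8 DTx library thus exceeded every PBS Tconv library. CD4 DTx held 42664, 20355 and 20902 normalized reads of Icos. Treg PBS held 31768, 36409 and 37525. These groups overlapped, because CD4 DTx replicate 1 was above all Treg libraries and the other CD4 DTx libraries were below them. The order of means was Treg PBS at 35234 ± 3053 (n = 3), CD4 DTx at 27974 ± 12725 (n = 3), CD8 DTx at 11383 ± 5316 (n = 3), CD4 PBS at 3726 ± 1059 (n = 2) and CD8 PBS at 1975 ± 616 (n = 2). The step from CD8 DTx to CD4 PBS passed the test (log2 1.54, limma, adjusted p = 0.0185, where 12.1% of genes were called higher), and the other steps between neighbors did not. That call was lost without CD4 PBS replicate 3 or CD8 DTx replicate 1 (limma, adjusted p = 0.184 and 0.0604).

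Ctla4, the inhibitory member, was at 1052 and 694 normalized reads in CD8 PBS. In CD4 PBS it was at 1198 and 566. The PBS Tconv groups overlapped. CD8 DTx held 6054, 2335 and 3395 normalized reads of Ctla4. CD4 DTx held 6962, 6588 and 4916. The DTx groups overlapped each other and were above all PBS Tconv libraries. In Treg PBS Ctla4 was at 34182, 39765 and 41133, far above every other library. By mean, Treg PBS came first at 38360 ± 3682 (n = 3), followed by CD4 DTx at 6155 ± 1089 (n = 3), CD8 DTx at 3928 ± 1916 (n = 3), CD4 PBS at 882 ± 447 (n = 2) and CD8 PBS at 873 ± 253 (n = 2). The steps from Treg PBS to CD4 DTx and from CD8 DTx to CD4 PBS (log2 2.14, limma, adjusted p = 0.00245) passed the test.

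**Figure D1:**
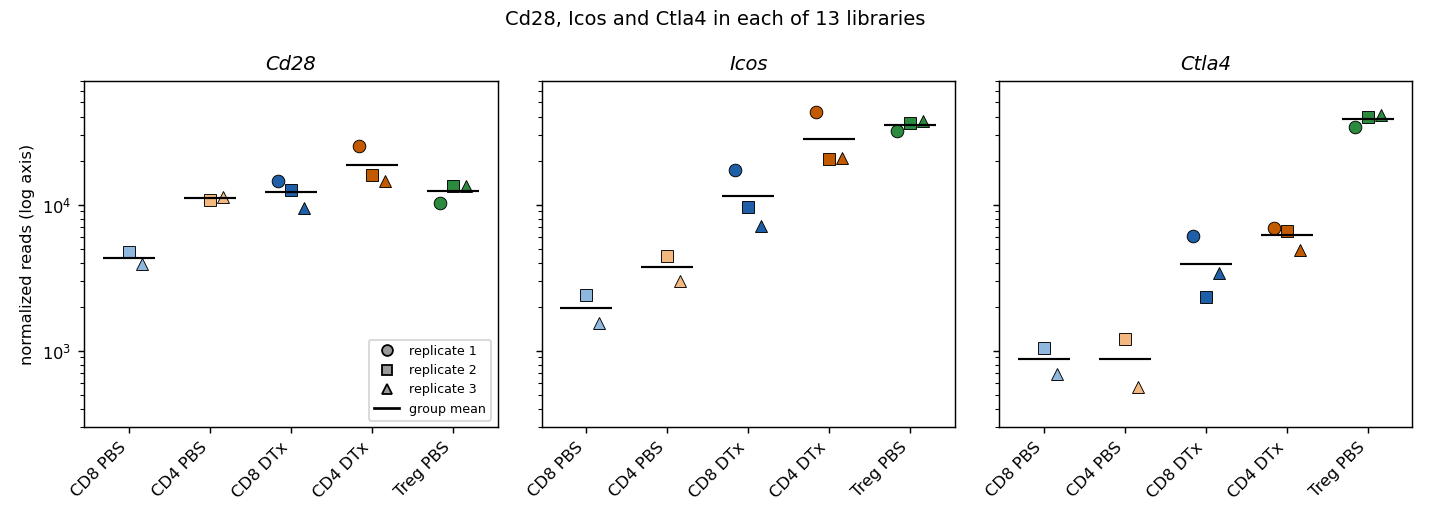
Normalized reads of Cd28, Icos and Ctla4 (log axis) in each of the 13 libraries, by group, with symbols for the replicate number and a line at the group mean. Icos in CD4 DTx (20355 to 42664) overlaps Treg PBS (31768 to 37525) through replicate 1 only, whereas Ctla4 in CD4 DTx (4916 to 6962) lies below it (34182 to 41133).

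Levels of different genes were compared per kilobase of exon, using GENCODE M21 exon unions of 4347 bases for Cd28, 3430 for Icos and 1933 for Ctla4. On this scale Cd28 led in PBS Tconv cells, with 2545 normalized reads per kilobase in CD4 PBS against 1086 for Icos and 456 for Ctla4. In Treg PBS the order was the opposite, with Ctla4 at 19845, Icos at 10272 and Cd28 at 2838 normalized reads per kilobase. CD4 DTx fitted neither order, since Icos led there at 8156, followed by Cd28 at 4262 and Ctla4 at 3184. CD8 DTx had Icos at 3319, Cd28 at 2808 and Ctla4 at 2032. The lengths come from another build than the alignment, and reads spread unevenly over a transcript would change these values.

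The comparison of Treg PBS with CD4 PBS asked how the members differed between suppressive and conventional CD4+ cells from tumors of PBS-treated mice. Icos and Ctla4 were higher in Treg PBS, and Cd28 was not called. Thus 2 of 3 members were called higher, where 13.5% of all genes tested were called higher. Ctla4 was 46.4-fold higher (log2 5.53, SE 0.39, limma, adjusted p = 6.74e-06), with a 95% interval of 25.8 to 83.2. Icos was 9.63-fold higher (log2 3.27, SE 0.40, limma, adjusted p = 1.75e-04). For Cd28 the log2 difference was 0.15 with a 95% interval of -0.43 to 0.72 (limma, adjusted p = 0.727), so a change of over 1.65-fold upward lay outside it. Against CD8 PBS all 3 members were higher in Treg PBS, where 11.9% of genes were called higher. The log2 fold changes there were 1.51 for Cd28, 4.19 for Icos and 5.48 for Ctla4 (limma, adjusted p = 0.00222, 4.43e-05 and 7.13e-06). In the CD4+ groups, marker sums of other cell types also differed, with 4 melanocyte markers together at 435 to 448 normalized reads in CD4 PBS and 727 to 1197 in Treg PBS. Within that sum Tyrp1, Dct and Tyr were higher in Treg PBS by mean, and Pmel was lower (172 against 245). The part of other cell types in the results was not tested.

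Comparing CD4 DTx with CD4 PBS asked what happened in CD4+ Tconv cells when Treg cells were removed. Icos and Ctla4 rose, with like fold changes, and Cd28 did not pass the threshold. Of the members, 2 of 3 were called higher, against 8.64% of all genes tested. Icos rose 7.20-fold (log2 2.85, SE 0.40, limma, adjusted p = 6.68e-04), with a 95% interval of 3.95 to 13.1. Ctla4 rose 7.38-fold (log2 2.88, SE 0.39, limma, adjusted p = 5.40e-04), with a 95% interval of 4.11 to 13.2. Cd28 had a log2 difference of 0.70 with a 95% interval of 0.12 to 1.28 (SE 0.26, limma, adjusted p = 0.111). Its groups did not overlap, which held in either direction for 46.3% of genes. Cd28 passed with DESeq2 on recovered reads (adjusted p = 0.0398) and with limma array weights (adjusted p = 0.0336). Foxp3 was at 1.87, 0 and 0 normalized reads in CD4 DTx, at or under a floor of 3 reads. The Treg markers Foxp3, Ikzf2 and Lrrc32 together came to 174 to 298 in CD4 PBS, 517 to 1337 in CD4 DTx and 10511 to 16128 in Treg PBS. Ikzf2 made up most of the sums in the Tconv groups, at 476 to 1335 in CD4 DTx and 157 to 290 in CD4 PBS. Lrrc32 overlapped between these groups, at 0 to 40.9 in CD4 DTx and 8.2 to 17.8 in CD4 PBS. Foxp3 was at 0 in CD4 PBS. CD8 lineage markers summed to 370 to 3662 in CD4 DTx and 560 to 615 in CD4 PBS, and the 4 melanocyte markers summed to 89.0 to 170 and 435 to 448. Sums of 3 erythroid markers were 0 to 628 in CD4 DTx and 398 to 3513 in CD4 PBS. The part of such cells was not tested.

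In CD8 cells the same treatment raised all 3 members. CD8 DTx against CD8 PBS had 3 of 3 called higher, against 7.40% of all genes tested. Icos rose 5.51-fold (log2 2.46, SE 0.40, limma, adjusted p = 0.00266). Ctla4 rose 4.25-fold (log2 2.09, SE 0.39, limma, adjusted p = 0.00562). Cd28, which is required for full CD8 T cell priming, rose 2.79-fold (log2 1.48, SE 0.26, limma, adjusted p = 0.00467). These calls leaned on a shared estimate of the spread. Without CD8 PBS replicate 3 the limma adjusted p-values were 0.0899 for Cd28, 0.0646 for Icos and 0.104 for Ctla4, and in a fit of these 2 groups alone they were 0.0603, 0.0659 and 0.0901. Foxp3 was at 3.70 to 12.1 normalized reads in CD8 DTx and at 0 to 9.72 in CD8 PBS. Melanocyte marker sums were 60.7 to 125 and 171 to 629 in these groups, and sums of 3 erythroid markers 6.47 to 434 and 814 to 3295, whose part was not tested. CD4 DTx against CD8 PBS, which differ in both cell type and treatment, had all 3 members higher, where 6.77% of genes were called higher.

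The response to DTx was then compared between cell types through the interaction term. None of the 3 members differed by limma, also at an unadjusted p under 0.05 (0 of 3), nor by edgeR or DESeq2 (0 of 3 each), where limma called 0.0474% of all genes. Cd28 had the response in CD4 cells lower than that in CD8 cells by a log2 difference of -0.78 with a 95% interval of -1.60 to 0.03 (limma, adjusted p = 1). For Icos it was 0.39 with an interval of -0.84 to 1.61, and for Ctla4 0.80 with an interval of -0.40 to 1.99. Each of these intervals held 0, and their widths show how loosely these libraries fixed the differences. Before DTx, Cd28 was 2.57-fold higher in CD4 PBS than in CD8 PBS (log2 1.36, SE 0.29, limma, adjusted p = 0.0483), as 1 of 3 members called where 0.245% of genes were called higher. The limma adjusted p-values were 0.169, 0.277, 0.211 and 0.242 without CD8 PBS replicate 2, CD8 PBS replicate 3, CD4 PBS replicate 2 and CD4 PBS replicate 3. Icos differed by a log2 of 0.92 with an interval of -0.03 to 1.87, and Ctla4 by -0.05 with an interval of -0.98 to 0.87 (limma, adjusted p = 0.810 and 1).

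After DTx the CD4 and CD8 cells were compared directly, and limma called 0 of 3 members, where 2 of 3 had an unadjusted p under 0.05, edgeR called 0 and DESeq2 called 1. In this comparison 1.64% of all genes were called in either direction. The member with the clearest gap was Icos, 2.48-fold higher in CD4 DTx (log2 1.31, SE 0.36, limma, adjusted p = 0.104), with no overlap between groups, as for 13.9% of genes. Same-numbered libraries of these groups varied together, and with the replicate number as a block the Icos difference passed (limma, adjusted p = 0.0279). Restricted to these 6 libraries, the blocked fit gave an adjusted p of 0.0942 by limma. Cd28 and Ctla4 differed by log2 0.58 and 0.74 with intervals of 0.07 to 1.10 and -0.01 to 1.50.

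Tconv cells after DTx were also set against Treg cells, which asked how near to the Treg level each member came. Relative to the Treg PBS mean, CD4 DTx stood at 150.2% for Cd28, 79.4% for Icos and 16.0% for Ctla4, and CD4 PBS at 89.7%, 10.6% and 2.30%. In CD4 DTx against Treg PBS 1 of 3 members was called, where 7.91% of all genes were called. That member was Ctla4, 6.28-fold lower (log2 -2.65, SE 0.35, limma, adjusted p = 8.42e-04). Icos differed by a log2 of -0.42 with a 95% interval of -1.19 to 0.35 (limma, adjusted p = 0.575), which leaves room for up to 2.29-fold less Icos in CD4 DTx. By library, Icos in CD4 DTx replicates 1, 2 and 3 stood at 121%, 57.8% and 59.3% of the Treg PBS mean, and without replicate 1 the log2 difference was -0.77 (limma, adjusted p = 0.201). For Cd28 the log2 difference was 0.55 with an interval of 0.04 to 1.07 (limma, adjusted p = 0.194), and its groups did not overlap, as for 25.4% of genes. In CD8 DTx against Treg PBS, 2 of 3 members were called lower, where 4.71% of genes were. Ctla4 was 10.5-fold lower (log2 -3.39, SE 0.35, limma, adjusted p = 9.68e-05) and Icos 3.31-fold lower (log2 -1.73, SE 0.36, limma, adjusted p = 0.00937). Cd28 differed by -0.03 with an interval of -0.54 to 0.49. The comparisons of CD4 DTx and of Treg PBS with CD4 PBS share the 2 CD4 PBS libraries, so their fold changes are given side by side and were not correlated.

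**Figure D2:**
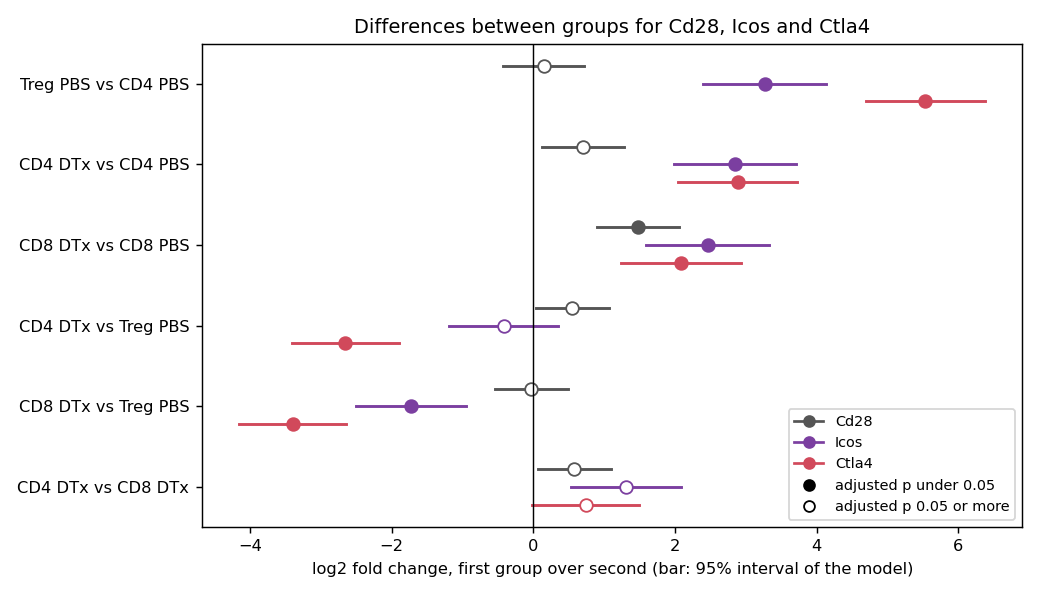
Log2 fold changes of Cd28, Icos and Ctla4 in 6 comparisons (first group over second), with 95% intervals of the limma model and filled points at an adjusted p under 0.05. Icos and Ctla4 have like values in CD4 DTx vs CD4 PBS (2.85 and 2.88) but not in Treg PBS vs CD4 PBS (3.27 and 5.53).

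Because CD28 and CTLA-4 compete for the same ligands, the ratio of their normalized reads was taken within each library, where the size factor cancels. In Treg PBS the ratio of Ctla4 to Cd28 was 3.35, 2.97 and 3.06. In CD4 DTx it was 0.276, 0.416 and 0.339. In CD4 PBS it was 0.111 and 0.0501. Cd28 therefore had more reads than Ctla4 in all Tconv libraries and fewer in all Treg libraries. The ratio in CD8 DTx was 0.415, 0.186 and 0.358, which overlapped CD8 PBS at 0.222 and 0.178. On the log2 scale the ratio was higher by 5.39 in Treg PBS and by 2.18 in CD4 DTx than in CD4 PBS, and by 0.61 in CD8 DTx than in CD8 PBS. A two-sided exact permutation test gave p = 0.1 for the first pair of comparisons, the smallest these group sizes allow, and p = 0.3 for the last. Adjusted over the 10 ratio tests, these became 0.143 and 0.375. Against Treg PBS the log2 ratio was lower by 3.21 in CD4 DTx and by 3.37 in CD8 DTx, both without overlap (exact permutation p = 0.1).

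The ratio of Ctla4 to Icos, added after the levels had been seen, was nearly constant in Treg PBS, at 1.08 to 1.10. In CD4 DTx it was 0.163, 0.324 and 0.235, within reach of the CD4 PBS values of 0.268 and 0.190. The log2 ratio differed by 0.04 between CD4 DTx and CD4 PBS (exact permutation p = 0.9), and its sign turned without CD4 DTx replicate 2 (-0.21) or CD4 PBS replicate 3 (-0.21). Treg PBS stood above CD4 PBS by 2.27 on the log2 scale. These values restate the levels that prompted the ratio and are given as a description.

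**Figure D3:**
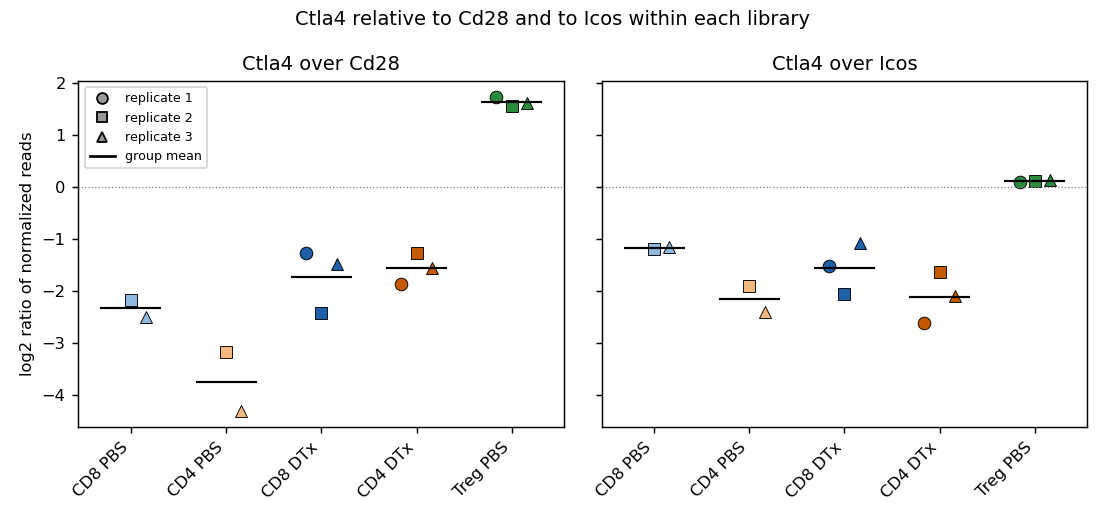
Log2 ratios of normalized reads of Ctla4 over Cd28 (left) and Ctla4 over Icos (right) in each library, with a line at the group mean and a dotted line at equal reads. The Treg PBS libraries are the only ones above 0 in both panels, and CD4 DTx lies above CD4 PBS in the left panel only.

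The members also varied together within groups. CD4 DTx replicate 1 and CD8 DTx replicate 1 were the highest libraries of their groups for all 3 members, and Treg PBS replicate 1 was the lowest of its group for all 3. Deviations from the group means over the 13 libraries had a Pearson r of 0.86 for Cd28 with Icos, 0.72 for Icos with Ctla4 and 0.42 for Cd28 with Ctla4. These are descriptions, since the libraries of a group share its mean and same-numbered DTx libraries are not independent.

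The genes whose log2 profile over the 13 libraries was most like each member were picked by Pearson r. For Cd28 they were 4931406C07Rik (0.96), Atxn7l1 (0.92), Narf (0.91), Tbc1d4 (0.90) and Exoc1 (0.90). 4931406C07Rik was a low gene, with group means from 0 in CD8 PBS to 50.7 in CD4 DTx, so its r leans on the pseudocount. For Icos they were Mif4gd (0.98), Samsn1 (0.96), Pfkl (0.96), Map2k3 (0.96) and Slamf1 (0.96), the last a T cell surface receptor. For Ctla4 they were Mxd4, Sla and Tnfrsf18 (0.98 each), Dgat1 (0.97) and Grn (0.97). Tnfrsf18 encodes GITR, a costimulatory receptor abundant on Treg cells. Its group means were 34845 normalized reads in Treg PBS, 12082 in CD4 DTx, 5938 in CD8 DTx, 2648 in CD4 PBS and 2813 in CD8 PBS. The flanking genes were taken as well. On the Cd28 side lie Raph1, Abi2 and Cyp20a1, and beyond Icos lie Pard3b, which was not analysed here, Nrp2 and Ino80d. In Treg PBS against CD4 PBS, 2 of these 5 measured neighbors were called, Cyp20a1 with log2 1.34 and Raph1, which was at 0 to 465 normalized reads over the libraries (limma, adjusted p = 0.0277 and 0.0131), where 20.4% of all genes were called. Raph1 was also called higher in CD8 DTx than in CD8 PBS (limma, adjusted p = 0.0269), as 1 of the 5 where 10.9% of genes were called, and limma called 0 of the 5 in CD4 DTx against CD4 PBS.

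A list of 60 genes around these receptors was examined by role, and all 60 were tested. In Treg PBS against CD4 PBS, 10 were called higher, 11 lower and 39 neither, with 35.0% called against 20.4% of all genes, and a median log2 of -0.16 against 0.01 over all genes. In CD4 DTx against CD4 PBS, 8 were called higher, 3 lower and 49 neither, or 18.3% against 12.7% of all genes, with medians of 0.12 and -0.04. In CD8 DTx against CD8 PBS, 3 were called higher, 4 lower and 53 neither, or 11.7% against 10.9%, with medians of 0.03 and -0.03. The last count was close to the background. Leaving out 1 library moved these counts of called genes. The first fell from 21 to 12 without CD4 PBS replicate 2 or 3. The second fell from 11 to 6, 5 and 7 without CD4 PBS replicate 2, CD4 PBS replicate 3 and CD4 DTx replicate 2. The last went from 7 to 3, 1, 4 and 18 without CD8 PBS replicate 2, CD8 PBS replicate 3, CD8 DTx replicate 2 and CD8 DTx replicate 3.

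Among the ligands, Cd80 and Cd86, the shared partners of CD28 and CTLA-4, were low to moderate transcripts of these T cells. Cd86 was at 2015, 1607 and 1749 normalized reads in Treg PBS against 532 and 332 in CD4 PBS, a log2 difference of 2.08 (SE 0.38, limma, adjusted p = 0.00252). Cd80 was at 384, 437 and 379 in Treg PBS against 27.3 and 10.6 in CD4 PBS (log2 4.47, SE 1.04, limma, adjusted p = 0.0101). Both ligands were thus higher in Treg PBS than in CD4 PBS. The highest mean of Cd86 was in CD8 DTx, at 2420, against 1790 in Treg PBS, 1201 in CD8 PBS and 650 in CD4 DTx. Cd80 was also higher in CD8 DTx, at 333, 139 and 269, than in CD8 PBS, at 62.0 and 2.67 (log2 3.94, SE 1.04, limma, adjusted p = 0.0315). edgeR on recovered reads called 0 of the 3 ligands in that comparison. Icosl, the ligand of ICOS, moved in another pattern. It was at 915, 1214 and 1571 normalized reads in CD4 DTx and at 318 and 234 in CD4 PBS, a log2 rise of 2.14 (SE 0.61, limma, adjusted p = 0.0373). In Treg PBS it was at 37.3, 119 and 194, and CD4 DTx was higher than Treg PBS by a log2 of 3.64 (SE 0.54, limma, adjusted p = 0.00180). These ligands are best known from antigen-presenting cells, and markers of such cells were detected. Among them the myeloid marker Lyz2 was at 809 to 2493 in Treg PBS and at 787 and 855 in CD4 PBS. The 5 dendritic cell markers summed to 541 to 994 in Treg PBS. In CD4 PBS they came to 83.2 to 261 and in CD4 DTx to 376 to 619. In CD8 DTx and CD8 PBS they came to 615 to 693 and 176 to 406. Clec9a was at 0 in all 13 libraries. Xcr1 made up most of the sum in the DTx groups, at 374 to 604 in CD4 DTx and 478 to 657 in CD8 DTx. By mean, Zbtb46, Cd209a and Flt3 were lower in CD4 DTx (17.7, 9.56 and 5.58) than in CD4 PBS (46.9, 66.5 and 10.9). The 8 myeloid markers summed to 1198 to 4143 in Treg PBS, 1384 to 1534 in CD4 PBS, 177 to 2286 in CD4 DTx, 1848 to 3167 in CD8 DTx and 697 to 2351 in CD8 PBS. Itgam and Cd68 had means of 1224 and 899 in CD8 DTx against 109 and 199 in CD8 PBS. Fcgr3 and Adgre1 were also higher in CD8 DTx by mean. Lyz2, Csf1r, C1qa and C1qb were lower there, with Lyz2 at a mean of 148 against 909. The 4 B cell markers, which ranged up to 948 in Treg PBS and 272 in CD4 PBS, summed to 92.6 to 158 in CD4 DTx, 276 to 1296 in CD8 DTx and 794 to 853 in CD8 PBS. Cd79b, at 248 to 1296 in CD8 DTx and at 725 and 746 in CD8 PBS, made up most of the B cell sums there. The part of antigen-presenting cells in the ligand values was not tested.

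Of the related inhibitory receptors, Pdcd1, which encodes PD-1, was higher in all 3 main comparisons, with log2 fold changes of 3.94 in Treg PBS against CD4 PBS, 2.96 in CD4 DTx and 3.23 in CD8 DTx (limma, adjusted p = 1.94e-04, 0.00183 and 0.00190). Btla, a further inhibitory receptor, was called in none of them by limma, with log2 differences of -1.07, -0.99 and -1.25 (adjusted p = 0.183, 0.272 and 0.167).

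Several signaling genes behind the receptors were lower in Treg cells. Among the proximal signaling genes, Prkcq, the protein kinase C of the T cell synapse, was lower in Treg cells than in CD4 PBS by a log2 of -1.85 (limma, adjusted p = 2.93e-04). The adaptor Grap2 was lower by -1.49 and the exchange factor Vav1 by -0.74 (limma, adjusted p = 0.0216 and 0.0466). Of 15 PI3K pathway genes, 4 were lower in Treg PBS, 2 in CD4 DTx and 3 in CD8 DTx, where 6.91%, 4.08% and 3.47% of all genes were called lower. Pik3ip1, an inhibitor of PI3K, was lower in all 3 comparisons, by log2 values of -2.93, -2.42 and -2.08 (limma, adjusted p = 5.18e-04, 0.00266 and 0.00877). So was Foxo1, a transcription factor that PI3K signaling keeps out of the nucleus, by -1.30, -1.85 and -1.44 (limma, adjusted p = 0.0290, 0.00675 and 0.0304). Pik3cd, the PI3K catalytic subunit of lymphocytes, was lower in Treg PBS by -2.35, and Akt2 by -0.86 (limma, adjusted p = 0.00583 and 0.00518). The regulatory subunit Pik3r2 was lower in CD8 DTx by -1.82 (limma, adjusted p = 0.0136), at 78.5 to 205 normalized reads against 499.9 and 508 in CD8 PBS.

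Genes that route CTLA-4 protein through the cell were examined because its surface level depends on them. Of 10 such genes, 2 were higher and 1 lower in Treg PBS, where 13.5% and 6.91% of all genes were called in these directions. In CD4 DTx 3 were higher, against 8.64% of all genes. In CD8 DTx limma called 0 of them, where 6 had an unadjusted p under 0.05, edgeR called 0 and DESeq2 called 4. Lrba, which protects CTLA-4 from lysosomal breakdown, ranged from 1710 to 2730 normalized reads in Treg cells, against 346 and 573 in CD4 PBS (log2 2.22, SE 0.45, limma, adjusted p = 0.00435). Rab11a, of the recycling compartment, was higher in Treg PBS by 1.16 and in CD4 DTx by 0.91 (limma, adjusted p = 0.00995 and 0.0446). Lax1, an adaptor linked to CTLA-4 transport, went down in Treg PBS by -0.62 and up in CD4 DTx by 0.92 (limma, adjusted p = 0.0496 and 0.0105), and the GTPase gene Arf1 rose in CD4 DTx by 0.62 (limma, adjusted p = 0.0300). The regulators of Icos mRNA, Rc3h1, Rc3h2 and Zc3h12a, which encode Roquin and Regnase proteins that degrade it, were not called in these comparisons (0 of 3 each by limma, edgeR and DESeq2, and 0 of 3 at an unadjusted limma p under 0.05). Rc3h1, for Roquin-1, had log2 differences of -0.05, 0.01 and 0.02.

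Among 6 transcription factors, Nfkb1, a subunit of NF-kappaB, was at 5589, 6357 and 4243 normalized reads in CD4 DTx against 1147 and 1462 in CD4 PBS, a log2 rise of 2.04 (SE 0.26, limma, adjusted p = 3.48e-04). It was higher in Treg PBS by 0.92 (SE 0.26, limma, adjusted p = 0.0241). Foxp3 was the other one called, in Treg PBS alone, with the levels given above. Of 8 outputs, Maf, a factor downstream of ICOS, was at 2966, 2949 and 2137 in CD4 DTx and at 3576 to 4740 in Treg PBS. CD4 PBS held 283 and 177 normalized reads of Maf. The log2 fold changes were 3.56 and 4.22 (limma, adjusted p = 1.58e-04 and 2.86e-05). In CD8 DTx Maf was at 191 to 204 and in CD8 PBS at 183 and 65.3, a log2 difference of 0.83 (limma, adjusted p = 0.189). Il4, a type 2 cytokine, was at 256, 718 and 442 in CD4 DTx, at 13.9 to 40.4 in CD8 DTx and under the floor of 3 reads in CD4 PBS and CD8 PBS. Il10, an inhibitory cytokine, was at 783 to 2214 in Treg PBS and at or under that floor in CD4 PBS. CD4 DTx held 0, 191 and 75.1 normalized reads of Il10 and CD8 DTx 49.0, 55.9 and 8.08, against 2.43 and 0 in CD8 PBS, and neither comparison with PBS passed (limma, adjusted p = 0.196 and 0.179). Bcl2l1, a survival gene that CD28 signals induce, was higher in Treg PBS by 1.80 (SE 0.33, limma, adjusted p = 0.00229), with 0.87 in CD4 DTx (SE 0.33, limma, adjusted p = 0.108). Il21, the cytokine of follicular helper cells, ranged from 421 to 1257 in CD4 DTx, was at 41.6 and 77.9 in CD4 PBS, ranged from 0 to 20.6 in Treg PBS, and was called lower in Treg PBS (limma, adjusted p = 0.0320). Cxcr5, a follicular homing receptor, was at 0 to 49.0 in CD8 DTx against 447 and 579 in CD8 PBS (limma, adjusted p = 0.0183). Il2, the cytokine most directly tied to CD28 signals, was low throughout, with at most 114 normalized reads.

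**Figure D4:**
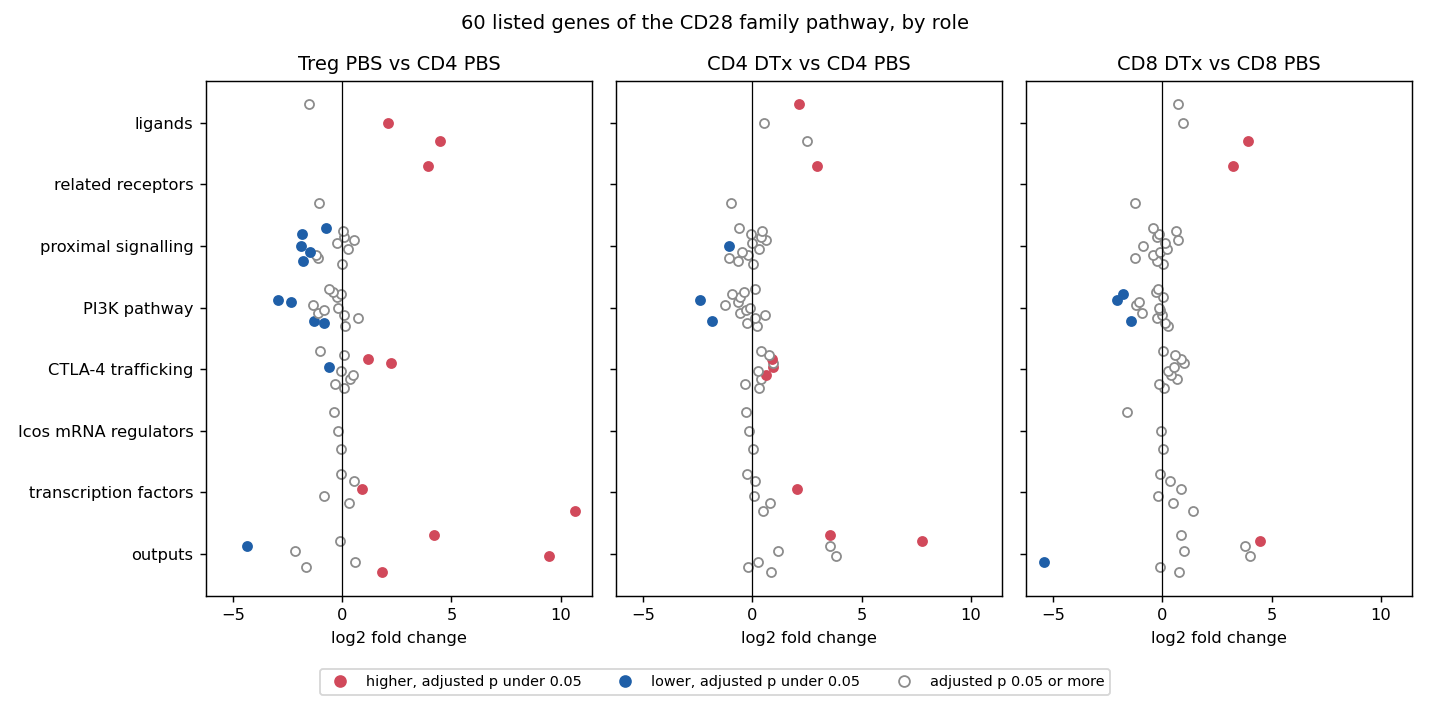
Log2 fold changes of the 60 listed genes by role in 3 comparisons, with red for called higher, blue for called lower and open circles for not called by limma. The PI3K row has blue points and no red ones in each panel, while fold changes of Foxp3, Il10 and Il4, at the far right, are set by the pseudocount because their comparison groups were near 0.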

How the data were processed

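RNA was sequenced from sorted tumor T cells. Libraries were SmartSeq2 per the labels, whereas the study's methods name a SMARTer low-input kit. The authors trimmed adaptors with cutadapt, aligned reads to NCBIM37 (mm9) with hisat2 and kept uniquely mapped reads. Strand setting and read counter are not given in the sources used here. The authors deposited 1 table of normalized signal per gene and library, named FPM. Its columns summed to between 2.18e+07 and 2.75e+07, so it was not on the scale its name implies. Dividing by the smallest step of each library gave whole numbers for 100% of values (tolerance 0.01), taken as the recovered reads. Each library counted as 1 sample, since same-group libraries differed by more than counting noise (chi-square over degrees of freedom 44.6 to 251). The study describes the replicates as biological and collected on different days, but neither it nor the labels tie a replicate number to a day or say whether animals were pooled. In the main fit, limma p-values judged differences of group means against the spread between libraries, pooled over all groups and partly shared across genes. Floors and read numbers cover counting error only.

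Models were fitted with limma 3.58.1 (R 4.3.3) to log2(value + 1) of 12667 genes with at least 10 in at least 2 libraries, with 1 mean per group over 13 libraries and no covariates. The scale understates changes of low genes. The pseudocount and minimum had been set for the scale of that name. Alternatives were edgeR 4.0.16 and DESeq2 1.42.0 (the study's tool) on recovered reads, pseudocounts, filters, scalings, array weights, fits of the compared groups alone, the 4-fold threshold of the study, a replicate block and leaving out each library. The limma fit and the permutation test were tested on simulated data. The members and lists were chosen with earlier results of these data known. Genes named from the list of 60 were the ligands, Pdcd1, Btla, genes passing with a log2 beyond 2 in any of the 3 main comparisons, and up to 4 genes a role with the smallest p. Some results for proximal signaling genes are not reported here. Carmil2 was matched as Rltpr. Of 37 marker genes 33 were in the table, and Pax5, Mlana, Sox10 and Hbb-b1 were not analysed here. Deviations of same-numbered CD4 DTx and CD8 DTx libraries from their group means had r of 0.36, 0.21 and 0.59, so these numbers were taken as pairs, from the data. CD4 DTx and CD8 DTx against Treg PBS also had 3 pairs, with an r of 0.037 and 0.0062 for replicate 2. For replicates 1 and 3 the r with Treg PBS was 0.25 and 0.21 in CD4 DTx and 0.24 and 0.30 in CD8 DTx. Groups of 2 libraries could not have 3 pairs. CD4 PBS and CD8 PBS had an r of 0.19 for both numbers, which are equal by construction with 2 libraries. Whether numbers mark days in all 5 groups was not settled, so the block was also fitted over all groups.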

Additional observations from a re-analysis of the deposited data

How the results depend on the processing

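Over 33 differences of the members, 374 of 399 alternative values kept their direction and their side of the threshold, as did 171 of 186 values with 1 library left out. Array weights and DESeq2 brought Cd28 past the threshold in CD4 DTx against CD4 PBS (log2 0.53 and 0.75). Fits of the groups alone lost the 3 members in CD8 DTx against CD8 PBS (1.48, 2.46 and 2.09), Cd28 in CD4 PBS against CD8 PBS (1.36), and Icos and Ctla4 in CD8 DTx against CD4 PBS (1.54 and 2.14), and such fits have fewer samples. The Cd28 call between the PBS groups was also lost with no filter (1.36) and with edgeR (1.36). The 4-fold threshold by construction removed Cd28 at 1.48, 1.51 and 1.36 and Icos at -1.73 and 1.54.

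The replicate block (pairing by number) and DESeq2 brought Icos past the threshold in CD4 DTx against CD8 DTx (1.31 and 1.29). The block changed no other member's call. It moved the count of all genes called between these groups from 208 to 414, and between CD4 DTx and Treg PBS from 1002 to 1739, where numbers were not taken as pairs. Restricting the blocked fit to the 6 DTx libraries, and the Ctla4 to Icos ratio, were chosen after seeing the data.

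Signs turned for differences near 0. Cd28 in Treg PBS against CD4 PBS was -0.015 after quantile normalization. Cd28 in CD8 DTx against Treg PBS was 0.00445 with array weights and 0.0214 with edgeR. In CD8 DTx against CD4 PBS Cd28 was -0.085 with equal sums and -0.16 after quantile normalization. Ctla4 between the PBS groups was 0.0152 with edgeR and 0.00154 with DESeq2. The Icos interaction was -0.0221 with array weights. Equal sums shifted the median of all genes by -0.10 in Treg PBS and -0.14 in CD4 DTx against CD4 PBS and by -0.20 in CD8 DTx against CD8 PBS.

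Ranges with 1 library left out were 1.34 to 1.65 for Cd28, 2.11 to 2.79 for Icos and 1.72 to 2.41 for Ctla4 in CD8 DTx against CD8 PBS. They were -0.17 to 0.14 for Cd28 in CD8 DTx against Treg PBS, 1.22 to 1.50 for Cd28 and -0.59 to 0.49 for Ctla4 in CD4 PBS against CD8 PBS, and -0.021 to 0.29 for Cd28 and 1.19 to 1.83 for Icos in CD8 DTx against CD4 PBS. The Ctla4 to Icos log2 ratio in CD4 DTx against CD4 PBS ranged from -0.21 to 0.29.

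Counts of the 60 listed genes called were 21 in Treg PBS against CD4 PBS (10 past 4-fold, 12 to 21 with 1 library left out). In CD4 DTx the count was 11 (22 with array weights, 17 with DESeq2, 6 past 4-fold, 5 to 10 with 1 library left out). In CD8 DTx it was 7 (0 in the groups alone, 13 with the replicate block, 24 with array weights, 16 with DESeq2, 1 to 18 with 1 library left out). For the interaction limma and edgeR called 0, 4 had an unadjusted limma p under 0.05, DESeq2 called 2, and leaving out 1 library gave 0 to 1. Where not stated, the cause was not tested. Groups of 2 or 3 libraries limit precision more than depth does.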
